A study of Mus musculus with 31 samples.

Results

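The cytosolic RNA sensors were 7 genes of the 46072 gene identifiers measured in each tumor, namely Ddx58, Ifih1, Dhx58, Mavs, Zbp1, Eif2ak2 and Trim14. They were taken by gene name, as a route to interferon other than the DNA sensor cGAS, by a rule that uses no measured value. mRNA-Seq was carried out on 31 tumors, 1 library per mouse, from wild-type C57BL/6 mice (C57BL/6J in the study's methods) injected subcutaneously on the right hind leg with 1 of 2 mouse tumor lines. RM-9 is a prostate cancer line and MC-38 a colon cancer line. Tumors in the RT groups received radiation therapy (RT) as a single dose of 15 Gy and were taken 3 h, 12 h or 24 h later. Tumors in the control groups were untreated, although their labels carry the 3 h time. There were 4 mice in each group but 3 in RM-9 RT 24 h. The 4 control mice of a model served all 3 of its RT groups, so a change at 12 h or 24 h and the passing of time without RT cannot be told apart. Each library came from a piece of whole tumor with its host cells, in which fewer cells of a type and less RNA per cell cannot be told apart.

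In the cytosol, RIG-I (gene Ddx58) and MDA5 (Ifih1) are helicases that bind double-stranded RNA, RIG-I mainly at short RNA with a 5' triphosphate and MDA5 along long duplexes. Both then engage MAVS on the mitochondrial surface, from which the kinases TBK1 and IKKε activate IRF3 and IRF7 and so type I interferon genes. LGP2 (Dhx58) lacks the signaling domains of the other helicases and modulates them. ZBP1 recognizes Z-form nucleic acid and can start RIPK3-dependent cell death, PKR (Eif2ak2) stops translation when bound to double-stranded RNA, and TRIM14 is an adaptor at MAVS. Most of these genes are themselves known as interferon-stimulated genes. Mavs and Trim14 encode adaptors and are counted among the sensors in what follows.

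In the coordinates of the deposited tables, which for all 7 genes were identical to those of GENCODE M21 on mouse build GRCm38, Ddx58 spanned chr4:40203773-40239828, Trim14 chr4:46493781-46536141, Ifih1 chr2:62595798-62646255, Zbp1 chr2:173206612-173218923, Dhx58 chr11:100694884-100704271 and Eif2ak2 chr17:78852564-78882573, all on the minus strand. Mavs lay on the plus strand at chr2:131234063-131248025. Promoters of 300 bases, from 250 before to 50 after the start, were held in the RefSeq table (GRCm38.p6) for 4 of the 7 genes, Ddx58, Ifih1, Eif2ak2 and Mavs. They are shown because the levels of Mavs followed a different course from those of the first 3 genes in RM-9 tumors. Across MC-38 libraries Mavs correlated positively with all of these genes, most with Ddx58 (Pearson 0.85). Another reason is that interferon-stimulated genes often carry an interferon-stimulated response element (ISRE) near the start. Capitals mark a match to an ISRE core, GAAANNGAAA, searched on both strands.
Ddx58, chr4:40239776-40240075, minus strand: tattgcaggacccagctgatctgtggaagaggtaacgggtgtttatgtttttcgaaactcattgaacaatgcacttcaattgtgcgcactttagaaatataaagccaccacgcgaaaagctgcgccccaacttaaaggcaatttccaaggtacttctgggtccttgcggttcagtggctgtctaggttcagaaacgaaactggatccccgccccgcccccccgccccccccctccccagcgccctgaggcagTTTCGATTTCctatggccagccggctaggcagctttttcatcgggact
Ifih1, chr2:62646206-62646505, minus strand: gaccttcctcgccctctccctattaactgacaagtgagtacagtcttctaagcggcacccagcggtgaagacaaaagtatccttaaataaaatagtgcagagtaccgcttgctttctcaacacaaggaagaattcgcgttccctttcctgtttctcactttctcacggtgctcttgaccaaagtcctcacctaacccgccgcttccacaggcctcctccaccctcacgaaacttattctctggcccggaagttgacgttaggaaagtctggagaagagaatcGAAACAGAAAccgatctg
Eif2ak2, chr17:78882523-78882822, minus strand: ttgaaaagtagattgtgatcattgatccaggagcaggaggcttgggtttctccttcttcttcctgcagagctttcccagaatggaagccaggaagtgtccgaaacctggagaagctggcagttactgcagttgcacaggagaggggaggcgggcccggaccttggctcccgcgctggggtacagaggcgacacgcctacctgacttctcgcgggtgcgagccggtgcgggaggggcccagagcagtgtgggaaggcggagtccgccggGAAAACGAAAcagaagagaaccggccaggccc
Mavs, chr2:131233813-131234112, plus strand: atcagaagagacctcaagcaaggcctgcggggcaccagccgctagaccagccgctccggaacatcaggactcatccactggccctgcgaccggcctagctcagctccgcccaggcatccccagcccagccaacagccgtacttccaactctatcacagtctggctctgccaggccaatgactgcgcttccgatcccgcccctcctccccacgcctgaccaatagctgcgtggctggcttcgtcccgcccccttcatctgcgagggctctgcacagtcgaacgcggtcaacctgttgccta
Counting the start base as 1, the match began at base 3 in Ddx58 (on the opposite strand), 33 in Ifih1 and 19 in Eif2ak2. These letters were not in the 300 bases of Mavs. Of 27025 genes with a promoter in the table, 3.99% held such a match in at least 1 promoter, and among 10 interferon-stimulated genes with a promoter 6 did. A second motif, the GAS core TTCNNNGAA, was found in Eif2ak2 of the 4 genes and in 9.55% of all genes, and it shared no base with the ISRE match. A match is a description of the sequence and not evidence of a bound factor. Whether a match bears on the course of the levels of any gene was not tested. Dhx58, Zbp1 and Trim14 had no promoter in the table.

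The libraries held between 21.4 M and 29.4 M reads. Values are TPM, a gene's share of the transcripts of 1 library after correction for transcript length, scaled to a fixed total. A single mitochondrial gene, mt-Nd4l, took 35.6% to 43.5% of TPM in RM-9 tumors and 12.9% to 29.6% in MC-38 tumors. Because TPM is a share, this affected the values of other genes. The median of all genes tested differed on the log2 scale by 0.63 between the control groups of the models, and the changes of this median after RT, in order of time, were 0.19, 0.33 and 0.22 in MC-38 and 0.06, -0.19 and -0.04 in RM-9 mice. With mitochondrial genes removed, the median still differed by 0.26 between the control groups. Its changes after RT were then 0.11, 0.21 and 0.13 in MC-38 and 0.06, -0.06 and -0.01 in RM-9 mice. What else moved the median was not tested. Because of these shifts, calls of the sensors are given on TPM as deposited and again after median-ratio scaling, which sets the typical gene near 0. The epithelial genes Krt8, Krt18, Epcam and Cdh1 added up to 610 to 1394 TPM in RM-9 tumors but to 0.42 to 1.56 TPM in MC-38 tumors, each of the 4 under 1 TPM in every MC-38 library. The colon genes Cdx2 and Lgr5 were under 1 TPM in every MC-38 library and the prostate gene Pbsn in every library of both models, so the tissue of origin of the lines was not visible in these markers. Markers of skeletal muscle ranged from 2.75 to 9783 TPM among the libraries.

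Untreated MC-38 tumors held far more mRNA for 6 of the 7 RNA sensors than untreated RM-9 tumors, and Mavs was the exception. The values of the helicases did not overlap between the models. Ddx58 stood at 6.28, 6.39, 6.20 and 8.00 TPM in the 4 RM-9 control mice and at 34.4, 57.2, 76.7 and 57.3 TPM in the 4 MC-38 control mice. Ifih1 was at 0.915, 1.12, 0.989 and 1.58 TPM in RM-9 and at 15.0, 21.9, 29.9 and 25.3 TPM in MC-38 control mice. Dhx58 was at 4.17, 4.67, 3.15 and 5.44 TPM against 31.6, 39.6, 54.8 and 51.7 TPM. All 3 helicases were thus several-fold higher in every MC-38 control mouse. The log2 differences were 2.93 ± 0.24 (standard error, SE) for Ddx58, 3.81 ± 0.21 for Ifih1 and 3.20 ± 0.24 for Dhx58, with limma adjusted p = 3.09e-11, 7.79e-15 and 6.02e-12.

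Zbp1, the sensor of Z-form nucleic acid, differed by a similar factor to Ifih1. It was at 12.8, 16.1, 9.43 and 14.8 TPM in RM-9 control mice and at 178, 259.9, 314 and 278 TPM in MC-38 control mice. The log2 difference was 4.22 ± 0.28 (limma adjusted p = 4.65e-13). As ratios of mean TPM, which are not compressed for low genes, Ifih1 was 20.01-fold and Zbp1 19.4-fold higher. The Eif2ak2 level was 7.37, 7.21, 7.48 and 9.08 TPM in RM-9 and 20.0, 35.6, 44.3 and 32.8 TPM in MC-38, a log2 difference of 1.97 ± 0.22 (limma adjusted p = 6.27e-09). Again no mouse of one model reached the range of the other. Trim14 was the lowest of the 7 genes in both control groups, at 0.534, 0.350, 0.990 and 1.13 TPM in RM-9 and 6.91, 10.4, 9.67 and 10.1 TPM in MC-38. Its log2 difference was 3.00 ± 0.20 (limma adjusted p = 2.95e-13).

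**Figure D1:**
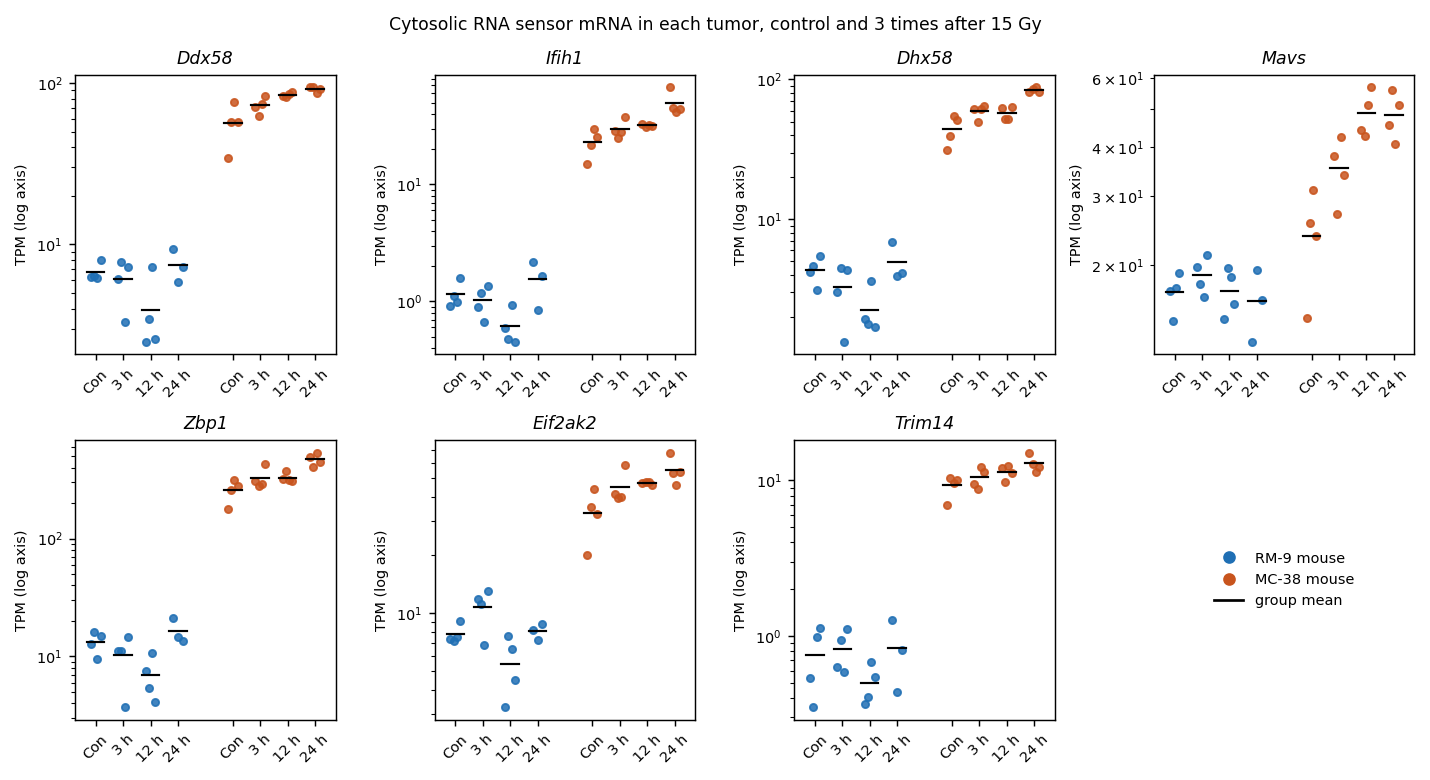
TPM of each RNA sensor on a log axis in every tumor, by model and group, with Con for control. Each point is 1 mouse and each black line a group mean. All MC-38 points lie above all RM-9 points except for Mavs, whose ranges overlap.

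Mavs, the adaptor on which the helicases converge, was at 17.1, 14.4, 17.5 and 19.1 TPM in RM-9 control mice and at 14.7, 25.5, 31.1 and 23.7 TPM in MC-38 control mice. The ranges overlapped, because 1 MC-38 mouse lay below 3 of the RM-9 mice. The log2 difference of 0.43 ± 0.17 (limma adjusted p = 0.0286) was smaller than the shift of the median gene and turned to -0.23 ± 0.12 after median-ratio scaling (limma adjusted p = 0.0946). Its direction between the models therefore depended on the scaling.

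All 7 genes were called higher in MC-38 control tumors at an adjusted p under 0.05, where 64.7% of all genes tested were called higher and 10.7% lower. After median-ratio scaling 6 of the 7 were called, against 34.1% of all genes, with log2 differences from 1.33 (Eif2ak2) to 3.56 (Zbp1). The median of the 7 was 3.00, and 2.51 after median-ratio scaling, where the median of all genes was 0.63 and 0.03. In exact two-sided permutation tests of mean TPM, the 6 genes without overlap reached p = 0.0286, the smallest that 4 mice against 4 can give, and Mavs had p = 0.114. Of all genes, 50.9% had every MC-38 control mouse above every RM-9 control mouse, and after median-ratio scaling, where the count for the sensors was again 6, 29.5% did. Each model had its own control mice and libraries, so the tumor line and any difference in their handling cannot be told apart in this comparison. Leukocyte markers (4 genes) added up to 94.3 to 120.5 TPM in RM-9 and 197 to 285 TPM in MC-38 control mice, and T cell markers (5 genes) to 3.31 to 5.68 and 13.1 to 20.1 TPM. Their part in the differences of the sensors was not tested. For comparison, the gene of cGAS, Mb21d1, was at 0.401 ± 0.128 TPM (SD, n = 4) in RM-9 and 14.8 ± 3.79 TPM (SD, n = 4) in MC-38 control mice.

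**Figure D2:**
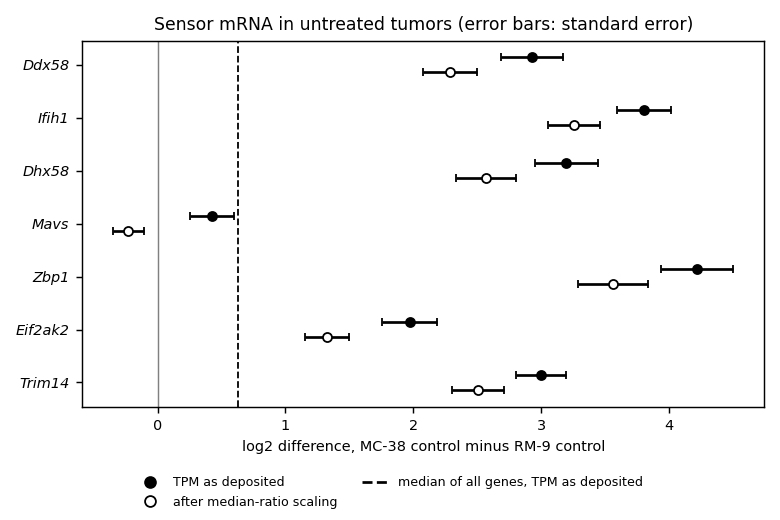
Log2 difference of each RNA sensor between MC-38 and RM-9 control tumors, with standard errors, on TPM as deposited (filled) and after median-ratio scaling (open). The dashed line marks the median of all genes on TPM as deposited, 0.63. Only Mavs lies to the left of it.

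The order of the genes by level differed between the models as well. Among RM-9 control mice the adaptor gene Mavs was the most abundant of the 7 (17.0 ± 1.93 TPM, SD, n = 4). Zbp1 was next at 13.3 ± 2.91 TPM, with an overlapping range. Eif2ak2 and Ddx58 followed at 7.78 ± 0.870 and 6.72 ± 0.859 TPM and overlapped, then came Dhx58 at 4.36 ± 0.962 TPM. Ifih1 and Trim14 were lowest, at 1.15 ± 0.297 and 0.751 ± 0.369 TPM, and also overlapped. Among MC-38 control mice Zbp1 led at 258 ± 57.4 TPM, apart from the rest. Ddx58 (56.4 ± 17.3 TPM), Dhx58 (44.4 ± 10.8 TPM), Eif2ak2 (33.2 ± 10.1 TPM), Mavs (23.8 ± 6.84 TPM) and Ifih1 (23.0 ± 6.29 TPM) came next, each overlapping its neighbor, and Trim14 was lowest without overlap at 9.28 ± 1.61 TPM. By mean level Mavs was thus the first of the 7 in RM-9 and the fifth in MC-38 control tumors.

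At 24 h after RT in MC-38 tumors, 6 of the 7 RNA sensors rose. Every RT mouse lay above every control mouse for all 7 on TPM as deposited, and for the same 6 after median-ratio scaling. Ddx58 was at 93.9, 94.0, 87.1 and 91.6 TPM at RT 24 h, all above the highest control mouse at 76.7 TPM. Ifih1 was at 67.5, 44.6, 41.5 and 44.3 TPM, with mouse 1 well above the other 3. Dhx58 was at 80.8, 85.1, 88.0 and 81.1 TPM, in a narrow range far from that of the control mice. On the log2 scale Ddx58 rose by 0.75 ± 0.17, Ifih1 by 1.10 ± 0.19 and Dhx58 by 0.94 ± 0.15 (SE), with limma adjusted p = 0.0105, 0.00243 and 0.00123. RIG-I and MDA5 transcripts, which encode the receptors, and LGP2 transcripts, which encode their modulator, therefore moved in the same direction at this time.

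Mavs was at 45.5, 55.8, 40.8 and 51.2 TPM at RT 24 h against a control range of 14.7 to 31.1 TPM, a log2 change of 1.05 ± 0.20 (limma adjusted p = 0.00348). Zbp1 was at 488, 404, 537 and 450.4 TPM and so remained the most abundant of the 7, with a log2 change of 0.89 ± 0.16 (limma adjusted p = 0.00346). The PKR transcript Eif2ak2 was at 68.2, 53.4, 46.2 and 53.7 TPM, the lowest of which exceeded the highest control mouse (44.3 TPM) only narrowly. Its log2 change was 0.77 ± 0.19 (limma adjusted p = 0.0180). Trim14 was at 15.1, 12.8, 11.4 and 12.2 TPM against 6.91 to 10.4 TPM in control mice. Its log2 change of 0.46 ± 0.15 did not pass the threshold (limma adjusted p = 0.0517).

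At this time 13.2% of all genes tested were called higher, 0.566% were called lower, and in 14.8% every RT mouse lay above every control mouse (10.6% after median-ratio scaling). After median-ratio scaling the same number, 6 of 7, was called against 7.84% of all genes, and the log2 changes were 0.49 (Ddx58), 0.84 (Ifih1), 0.68 (Dhx58), 0.79 (Mavs), 0.62 (Zbp1) and 0.51 (Eif2ak2), with limma adjusted p from 0.00105 to 0.0235. Trim14 had 0.21 ± 0.13 (limma adjusted p = 0.301). With any 1 mouse left out, 6 or 7 genes were called. In a fit of the 2 groups alone 4 were called, without Ddx58 (limma adjusted p = 0.0948) and Eif2ak2 (limma adjusted p = 0.109). Each exact two-sided permutation test of mean TPM gave p = 0.0286 for all 7 genes, the smallest possible. After median-ratio scaling, the exact permutation p was 0.0286 for 6 genes and 0.0857 for Trim14, which overlapped.

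At 12 h in MC-38 tumors, Mavs stood out from the other sensors. It was at 44.1, 42.8, 51.2 and 56.9 TPM, every mouse above the control range, with a mean of 48.7 ± 6.57 TPM (SD, n = 4) close to the 48.3 ± 6.55 TPM (SD, n = 4) of RT 24 h. The log2 change was 1.06 ± 0.20 (limma adjusted p = 0.00669), and 0.72 ± 0.13 after median-ratio scaling (limma adjusted p = 0.00531). Ddx58 was at 82.7, 82.2, 84.8 and 88.0 TPM, also without overlap, with a log2 change of 0.63 ± 0.17 (limma adjusted p = 0.0189) that was 0.28 ± 0.09 after median-ratio scaling (limma adjusted p = 0.0467). Eif2ak2 was at 47.1, 48.0, 48.0 and 46.0 TPM, above all control mice, with a log2 change of 0.56 ± 0.19 (limma adjusted p = 0.0412). After median-ratio scaling it was 0.21 ± 0.14 and no longer passed (limma adjusted p = 0.299).

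The other 4 genes did not pass at 12 h. Ifih1 was at 32.6, 31.2, 32.5 and 31.7 TPM, without overlap, with a log2 difference of 0.51 ± 0.19 (limma adjusted p = 0.0551). Dhx58 was at 62.2, 52.2, 52.0 and 63.1 TPM and Zbp1 at 323, 372, 314 and 307 TPM, both overlapping the control mice, with log2 differences of 0.39 ± 0.15 and 0.38 ± 0.16 (limma adjusted p = 0.0535 and 0.0836). Trim14 was at 12.1, 9.73, 12.5 and 11.1 TPM, with a log2 difference of 0.29 ± 0.15 (limma adjusted p = 0.138). After median-ratio scaling these 4 genes lay between -0.05 (Trim14) and 0.16 (Ifih1), so their differences at 12 h were about those of the typical gene.

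The 3 calls at 12 h stood against 28.4% of all genes called higher and 2.6% called lower, and the 4 genes without overlap against 34.5% of all genes. After median-ratio scaling 2 of the 7, Mavs and Ddx58, were called against 6.28%, and 1, Mavs, was without overlap against 15.9%. The count of 3 rested on single libraries. It was 6 without control mouse 3, the control mouse with the highest value of every sensor but Trim14, it was 2 without control mouse 1, and it was 1 without RT 12 h mouse 4. Mavs was called in each of these fits. Control mouse 1, which was lowest of its group for all 7 genes, also had the highest mt-Nd4l share (29.6%) and the highest muscle marker sum (9783 TPM) of the MC-38 libraries. The part of that in its low values was not tested.

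At 3 h none of the 7 genes was called in MC-38 tumors by limma, where 0.0573% of all genes were called higher and 0.0127% lower, and 4 of the 7 had an unadjusted p under 0.05, where 19.98% of all genes did. Mavs again had the greatest difference, at 37.9, 27.0, 42.5 and 33.9 TPM with 3 of 4 mice above the control range (log2 0.59 ± 0.20, limma adjusted p = 0.163). Dhx58 was at 61.4, 49.6, 61.9 and 64.1 TPM, with 3 of 4 mice above all controls (log2 0.44 ± 0.15, limma adjusted p = 0.166). The others lay between 0.17 (Trim14) and 0.47 (Eif2ak2) on the log2 scale and overlapped the control mice. No gene of the 7 was free of overlap, as 7.2% of all genes were. After median-ratio scaling 0 genes were called, 1 had an unadjusted p under 0.05 (17.0% of all genes), and the differences ranged from -0.04 (Trim14) to 0.38 (Mavs).

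**Figure D3:**
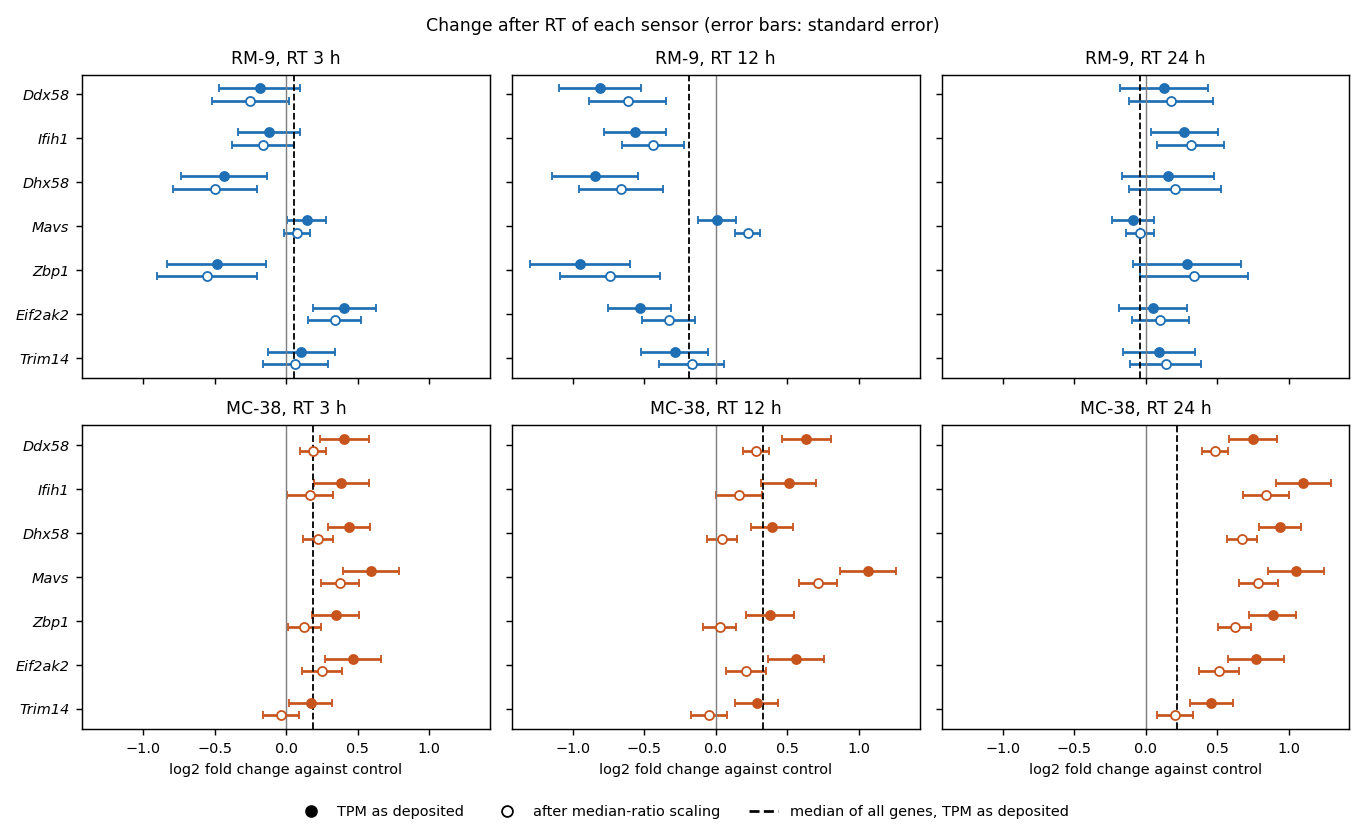
Log2 change of each RNA sensor at each of the 3 times after RT against the control mice of the same model, with standard errors, on TPM as deposited (filled) and after median-ratio scaling (open). The dashed line is the median of all genes on TPM as deposited. In MC-38 tumors all 7 filled points lie right of it at 24 h, while in RM-9 tumors 5 lie clearly left of 0 at 12 h.

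In RM-9 tumors, no RNA sensor passed the threshold at any time in the limma fit of all mice. At 3 h the library of mouse 3 stood low for the helicases and Zbp1. Ddx58 was at 6.07, 7.78, 3.30 and 7.19 TPM, Dhx58 at 3.00, 4.49, 1.33 and 4.37 TPM and Zbp1 at 11.1, 11.2, 3.72 and 14.7 TPM. The other 3 mice were within or close to the control range in each. Mouse 3 also had the lowest mean level of the 16 interferon-stimulated genes of all RM-9 libraries, 1.48 on the log2(TPM + 0.5) scale, and without it the log2 difference of Ddx58 was 0.06. Eif2ak2 was at 11.9, 11.1, 6.86 and 13.1 TPM, above all control mice in 3 of 4, with a log2 difference of 0.41 ± 0.22 (limma adjusted p = 0.280). The 7 log2 differences at 3 h ranged from -0.49 (Zbp1) to 0.41, and 0 had an unadjusted p under 0.05, where 21.9% of all genes did. After median-ratio scaling 0 were called as well. Over all genes, 0.2% were called higher and 0.0285% lower.

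At 12 h in RM-9 tumors 6 of the 7 genes had a negative log2 difference, 5 of them with an unadjusted p under 0.05 (31.1% of all genes), and 0 were called, where 8.29% of all genes were called lower and 0.0713% higher. Ddx58 was at 2.49, 3.42, 7.22 and 2.60 TPM, below every control mouse in 3 of 4. Dhx58 was at 1.93, 1.77, 3.63 and 1.70 TPM, Zbp1 at 7.49, 5.42, 10.7 and 4.08 TPM and Ifih1 at 0.595, 0.477, 0.939 and 0.453 TPM. In each of these genes mice 1, 2 and 4 lay below all control mice and mouse 3 within their range. The log2 differences were -0.81 ± 0.28 for Ddx58, -0.85 ± 0.30 for Dhx58, -0.95 ± 0.35 for Zbp1 and -0.57 ± 0.22 for Ifih1, with limma adjusted p = 0.0770, 0.0793, 0.0873 and 0.0967. Eif2ak2 was at 3.26, 7.60, 6.53 and 4.48 TPM (log2 -0.53 ± 0.22, limma adjusted p = 0.120) and Trim14 at 0.366, 0.405, 0.681 and 0.542 TPM (log2 -0.29 ± 0.23, limma adjusted p = 0.412).

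Mavs did not share that pattern. It was at 14.5, 19.6, 18.6 and 15.8 TPM at RT 12 h, spread over the control range, with a log2 difference of 0.01 ± 0.14 (limma adjusted p = 0.975). After median-ratio scaling its 4 RT mice, at 24.4 to 28.9, lay above the 4 control mice, at 19.8 to 23.7 (exact two-sided permutation p = 0.0286), which held for 3.75% of all genes, while limma gave 0.22 (adjusted p = 0.271). On TPM as deposited, none of the 7 genes had all 4 RT mice below all control mice, which held for 19.4% of all genes. Without RT 12 h mouse 3, Ddx58 and Dhx58 passed, with log2 changes of -1.12 and -1.06 (limma adjusted p = 0.0348 and 0.0487). After median-ratio scaling the differences at 12 h ranged from -0.74 (Zbp1) to 0.22 (Mavs), 0 were called and 3 had an unadjusted p under 0.05 (15.2% of all genes). Macrophage markers (6 genes) added up to 152 to 289 TPM at RT 12 h against 300.0 to 468 TPM in RM-9 control mice. Muscle markers were at 2.75, 17.2, 855 and 74.7 TPM in RT 12 h mice 1 to 4, so that mouse 3 was also the highest for them. The part of either in the lower sensor values was not tested.

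At 24 h in RM-9 tumors the 3 mice were spread around the control mice. Mouse 1 was highest for the helicases, with Ddx58 at 9.33, 5.87 and 7.22 TPM, Ifih1 at 2.15, 0.849 and 1.64 TPM and Dhx58 at 6.88, 3.95 and 4.11 TPM. Zbp1 was at 21.2, 14.5 and 13.5 TPM and Trim14 at 1.27, 0.434 and 0.808 TPM, again with mouse 1 highest. Mavs ran the other way, at 12.7, 19.4 and 16.3 TPM with mouse 1 lowest, and Eif2ak2 stayed between 7.24 and 8.82 TPM. The 7 log2 differences ranged from -0.09 (Mavs) to 0.29 (Zbp1), 0 passed and 0 had an unadjusted p under 0.05 (4.92% of all genes), and 0% of all genes were called in either direction. After median-ratio scaling 0 passed as well. Mouse 1 also had the highest muscle marker sum (2103 TPM) and leukocyte marker sum (146 TPM) of the RM-9 libraries, and the part of that in its sensor values was not tested.

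**Figure D4:**
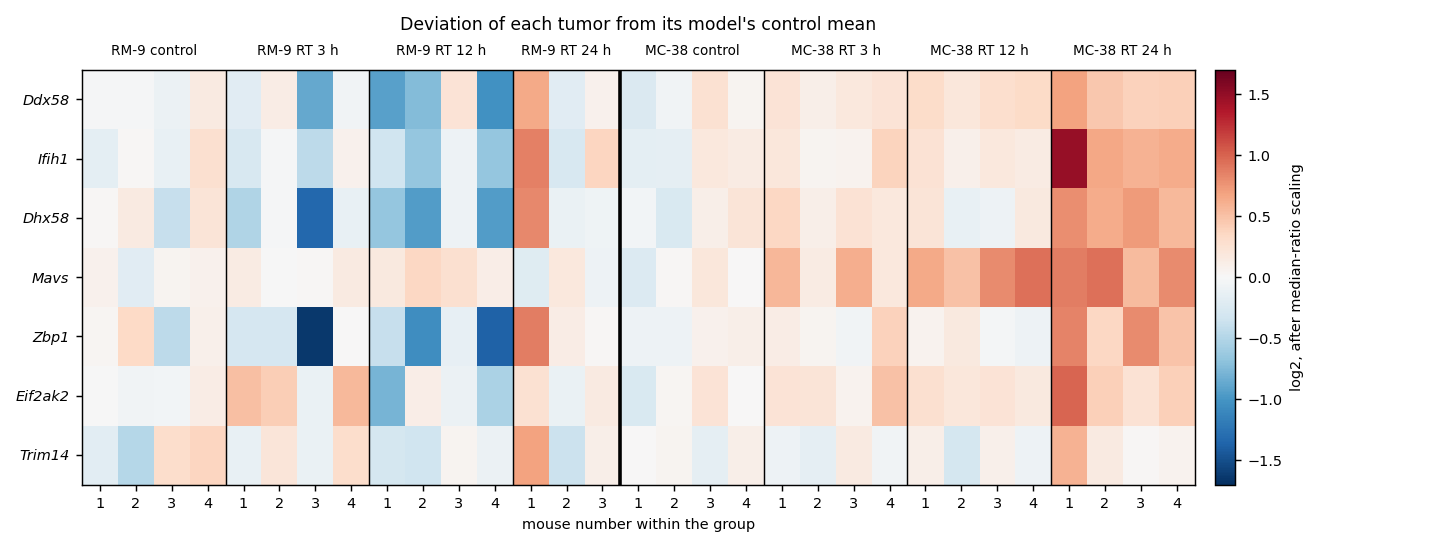
Deviation of each tumor from the mean of the control mice of its model, on the log2 scale after median-ratio scaling, for the 7 RNA sensors (rows) and 31 mice (columns). All MC-38 RT 24 h values lie above 0, from 0.02 (Trim14 of mouse 3) to 1.48 (Ifih1 of mouse 1). The Mavs row departs from the other rows in RM-9 RT 12 h mice 1, 2 and 4 and in the MC-38 RT 12 h mice.

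The change after RT was then compared directly between the models, as the MC-38 change minus the RM-9 change in 1 limma fit of all 31 libraries. At 12 h the difference was positive for all 7 genes and passed for 6, Ddx58 (log2 1.44 ± 0.34), Zbp1 (1.33 ± 0.40), Dhx58 (1.24 ± 0.35), Eif2ak2 (1.09 ± 0.31), Ifih1 (1.08 ± 0.30) and Mavs (1.05 ± 0.25), with limma adjusted p from 0.00355 to 0.0123. Trim14 had 0.57 ± 0.28 (limma adjusted p = 0.0898). These 6 calls stood against 45% of all genes, whose median difference was 0.50. After median-ratio scaling the differences were 0.17 (Trim14) to 0.95 (Ddx58), 0 of the 7 passed (limma adjusted p from 0.0751 to 0.789), where 1.53% of all genes passed, and 6 had an unadjusted p under 0.05, where 20.4% of all genes did. The call of a difference between the models at 12 h therefore held on TPM as deposited and not on the rescaled values.

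At 24 h the difference passed for Mavs, at 1.14 ± 0.26 on the log2 scale (limma adjusted p = 0.0229), where 1.82% of all genes passed. It also passed after median-ratio scaling, at 0.88 ± 0.18 (limma adjusted p = 0.0105), against 1.28% of all genes. Without RM-9 control mouse 4 or RM-9 RT 24 h mouse 1 it was 1.08 and 0.98 and missed the threshold (limma adjusted p = 0.0569 and 0.0972). The other 6 genes had differences from 0.36 (Trim14) to 0.83 (Ifih1) that did not pass (limma adjusted p from 0.124 to 0.468). At 3 h the differences ran from 0.06 (Eif2ak2) to 0.87 (Dhx58), 0 passed, 2 had an unadjusted p under 0.05 (9.96% of all genes), and 0% of all genes were called.

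Across libraries, the pairs among 6 of the sensors all had positive correlations, while those with Mavs were negative in RM-9 tumors. Over the 15 RM-9 libraries, after median-ratio scaling, the 15 pairs among the 6 genes without Mavs had Pearson correlations from 0.35 to 0.95 with a median of 0.62. The weakest was Zbp1 with Trim14, with a Spearman correlation of 0.09 (0.16 in MC-38 tumors). The 6 pairs with Mavs ran from -0.67 (Ifih1; Spearman -0.57) to -0.15 (Eif2ak2; Spearman -0.24). Over the 16 MC-38 libraries the pairs without Mavs ran from 0.47 to 0.91 and those with Mavs from 0.35 (Zbp1 and Trim14) to 0.85 (Ddx58; Spearman 0.87). The libraries include the RT groups and share their control mice, so these values are descriptions and carry no test. The closest pair was Dhx58 and Zbp1 in RM-9 (Pearson 0.95, Spearman 0.87) and Ifih1 and Eif2ak2 in MC-38 tumors (Pearson 0.91, Spearman 0.91).

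The genes most like each sensor were taken as the 3 whose lower correlation of the 2 models was highest, among 12255 genes (12256 for Trim14) with a mean of at least 1 TPM in both models, over 15 and 16 libraries. For Ddx58 they were Oas3, Parp14 and Samd9l (lower r from 0.93 to 0.94), and for Ifih1 Trim30a, Slfn8 and Pydc4 (0.90 to 0.96). Dhx58 was followed by Ifi203, Slfn8 and Gm4955 (0.93 to 0.94) and Zbp1 by Ifit1, Ifit3 and Isg15 (0.91 to 0.93). For Eif2ak2 they were Slfn9, Cpsf2 and Zc3hav1 (0.83 to 0.91), and for Trim14 Slfn5, Coro2a and Ifih1 (0.71 to 0.79). Mavs was followed less closely by Tns2, Arhgap17 and Xdh (0.74 to 0.77).

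In MC-38 tumors most of 8 other known sensors of RNA rose together with these genes. At RT 24 h, where 13.2% of all genes rose (7.84% after median-ratio scaling), 7 of these 8 rose and 0 fell. Tlr7 was not called on TPM as deposited, and the counts were the same after median-ratio scaling. The median log2 change of the 8 was 0.97 (0.71 after median-ratio scaling), against 0.89 (0.62) for the 7 RNA sensors. Oas1a and Oas2, which make the 2-5A signal for RNase L, rose by 0.90 ± 0.17 and 1.26 ± 0.26, and the endosomal receptor Tlr3 rose by 1.24 ± 0.16 (limma adjusted p = 0.00343, 0.00673 and 0.000414). Of 16 interferon-stimulated genes 15 rose at RT 24 h, and 13 after median-ratio scaling, among them Isg15 (0.93 ± 0.17) and Ifit1 (1.19 ± 0.19), with limma adjusted p = 0.00336 and 0.00122.

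At RT 12 h 28.4% of all genes rose. Of the other RNA sensors 6 of 8 rose and 1 (Tlr7) fell, with 2 rising after median-ratio scaling, and 2 of the 16 interferon-stimulated genes rose, with 0 after median-ratio scaling. The median log2 changes of these lists were 0.60 and 0.42, and the difference between them was not tested. Isg15 had 0.35 ± 0.17 and Ifit1 0.46 ± 0.19 on the log2 scale at that time (limma adjusted p = 0.114 and 0.0657), when Mavs had risen by 1.06.

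The counts of the other lists stand beside 28.4% of all genes called higher at 12 h and 13.2% at 24 h. In signaling below the sensors, of 15 genes 7 rose at RT 12 h and 4 at RT 24 h in MC-38 tumors, with 0 falling. After median-ratio scaling 0 rose at 12 h, and 3 rose and 2 fell at 24 h. Irf7, the interferon-inducible transcription factor of the route, rose at 24 h by 0.96 ± 0.15 (limma adjusted p = 0.00119), the kinase gene Ikbke had 0.48 ± 0.21 (limma adjusted p = 0.138), and Traf3, an adaptor below MAVS, rose at 12 h by 0.54 ± 0.19 (limma adjusted p = 0.0426) and had 0.12 ± 0.19 at 24 h (limma adjusted p = 0.690). Activators of the helicases (11 genes) counted 2 risen at 12 h, and 0 after median-ratio scaling, and 3 at 24 h, the latter being Trim25 and Rnf135, ubiquitin ligases of RIG-I, at 0.65 ± 0.18 and 0.90 ± 0.17, and Ddx60 at 1.36 ± 0.26 (limma adjusted p = 0.0236, 0.00343 and 0.00431). All 3 also passed after median-ratio scaling at 24 h.

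Inhibitors of the helicases or of MAVS (10 genes) counted 6 risen at 12 h and 3 at 24 h. After median-ratio scaling 1 fell at 12 h, and 2 rose and 2 fell at 24 h. Rnf125, a ubiquitin ligase that marks RIG-I for degradation, rose by 0.91 ± 0.25 at 24 h (limma adjusted p = 0.0249), the deubiquitinase gene Cyld by 0.49 ± 0.15 (limma adjusted p = 0.0427, and 0.24 with adjusted p = 0.0685 after median-ratio scaling), and Nlrx1 had -0.01 ± 0.19 (limma adjusted p = 0.983). In the cell death route of ZBP1 (7 genes) 3 rose at each of 12 h and 24 h, while after median-ratio scaling 1 rose at 12 h, and 2 rose and 1 fell at 24 h. Among the 3 were its executioner gene Mlkl (0.80 ± 0.15 at 24 h) and Adar, the editing enzyme that limits ZBP1 and MDA5 ligands (0.72 ± 0.18), with limma adjusted p = 0.00304 and 0.0186. Ripk3 had 0.21 ± 0.28 (limma adjusted p = 0.644). PKR partners and the integrated stress response (10 genes) counted 3 risen at 12 h and 1 at 24 h, shares close to or below those of all genes, while after median-ratio scaling 0 rose at either time and 1 fell at 12 h. The PKR activator gene Prkra, its substrate gene Eif2s1 and Ppp1r15a had 0.35, 0.16 and 0.18 at 24 h (limma adjusted p from 0.175 to 0.696).

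In RM-9 tumors 0 genes of these 7 pathway lists passed at 24 h, by limma on either scale. At 12 h 8 of 77 (10.4%, against 8.29% of all genes) fell on TPM as deposited, 2 of them interferon-stimulated genes (Rtp4 and Ifit3), and 0 after median-ratio scaling. At 3 h 0 passed on TPM as deposited, and 1 gene of the signaling list passed after median-ratio scaling.

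Marker sums of other cells were set beside the sensors in MC-38 tumors. The macrophage sum was 625 to 999.6 TPM in control mice and 230.2 to 542 TPM at RT 12 h, below the control range. At RT 24 h it was 509.7 to 633 TPM. Leukocyte markers added up to 197 to 285 TPM in control mice, 104 to 196 TPM at RT 12 h and 198 to 240.5 TPM at RT 24 h. NK cell markers (4 genes) were at 20.0 to 41.5 TPM in control and 23.1 to 52.0 TPM in RT 24 h mice, T cell markers at 13.1 to 20.1 and 6.53 to 12.7 TPM, and neutrophil markers (5 genes) at 11.3 to 24.8 and 20.4 to 35.0 TPM. Endothelial markers (4 genes) added up to 32.9 to 46.7 TPM in control mice and 31.4 to 42.0 TPM at RT 12 h. At RT 24 h their sum was 48.4 to 59.6 TPM, above the control range. On TPM as deposited, 14.8% of all genes likewise lay wholly above their control range at that time. Of the 4 endothelial genes 2 were called higher at RT 24 h. After median-ratio scaling 0 of the 4 were called, where 6 of the 7 sensors were. Fibroblast markers (4 genes) were at 342 to 463 TPM in control and 414 to 731 TPM in RT 24 h mice. The part of these cells in the sensor changes was not tested. Of the markers of plasmacytoid dendritic cells (4 genes), 3 were under 1 TPM in every RT 24 h library, and the sum of 15.3 TPM in RT 24 h mouse 1 came mainly from the remaining gene, Spib. RT 24 h mouse 1 had the highest Ifih1 (67.5 TPM), Eif2ak2 (68.2 TPM) and Trim14 (15.1 TPM) of all libraries. Without it 6 of the 7 sensors were still called at 24 h, the same number as with it.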

How the data were processed

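mRNA was measured in 31 tumors from 8 groups (TruSeq Stranded mRNA libraries, single-end reads of 75 bases). The authors deposited 1 gene abundance table per mouse with coverage (mean read depth), FPKM and TPM for each gene. TPM, deposited as values scaled within a library, was used for all comparisons. The deposited FPKM and coverage signal served to compute depth, which came to 21.4 M to 29.4 M reads per library, and the coverage also gave a rescaled alternative. Depth limits the precision of low genes such as Trim14 in RM-9 tumors (mean 0.719 TPM); counts were not used here. The aligner and quantifier are not given in the sources used here. The submitters' processing notes name bcl2fastq 2.17 and GRCm39, whereas 83.2% of the 45137 identifiers shared with GENCODE M21 had its GRCm38 positions.

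Samples were grouped by their labels. Values of repeated rows of a gene were summed. log2(TPM + 0.5) was fitted with limma 3.58.1 in R 4.3.3 (eBayes with trend), with all groups of a model in 1 fit and all 31 libraries in 1 fit for comparisons between models. Genes with a mean of at least 0.5 TPM were tested, as were all genes of the pathway and marker lists whatever their level. These were 14029 genes in RM-9, 15711 in MC-38 and 15367 in the fit of both. A gene was called at a Benjamini-Hochberg adjusted p under 0.05. A log2 change on this scale understates that of low genes. All 7 members passed the filter in both models. Exact two-sided permutation tests of mean TPM used scipy 1.17.1 in Python 3.11.15. Median-ratio scaling, another pseudocount or filter, removal of mitochondrial genes, no trend, a replicate block, fits of the compared groups alone, Dunnett comparisons and leaving out each mouse were alternatives. The fits were tested on simulated data. No library duplicated another. The members, pathway lists, marker lists and motifs were chosen with earlier results of these data known. From each pathway list the first 3 genes in its written order were named (1 of them is not reported here), the rest by count, with names for counts of up to 3 chosen after their values were seen. For each sensor, the 3 genes most like it were named.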

Additional observations from a re-analysis of the deposited data

Results flagged for a closer look

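In 5 of 49 gene and group combinations of 4 mice tested, 1 mouse stood apart from the other 3 by more than a gap criterion (Dixon, 0.829 of the range) that chance passes in about 1 in 20. RM-9 control mouse 4 was high for Ddx58 (8.00 TPM) and Eif2ak2 (9.08 TPM). RM-9 RT 12 h mouse 3 was high for Dhx58 (3.63 TPM), MC-38 RT 24 h mouse 1 for Ifih1 (67.5 TPM) and MC-38 RT 3 h mouse 4 for Eif2ak2 (58.5 TPM).

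The change after RT differed between the models, by the limma test of the difference itself, for 6 sensors at 12 h and 1 at 24 h. Of all genes tested, 45% were called higher in this test at 12 h and 1.82% at 24 h. At 12 h the MC-38 change minus the RM-9 change on the log2 scale was 1.44 for Ddx58, 1.08 for Ifih1, 1.24 for Dhx58, 1.05 for Mavs, 1.33 for Zbp1 and 1.09 for Eif2ak2, and none of these 6 passed after median-ratio scaling. At 24 h it was 1.14 for Mavs, which passed on both scales.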

How the results depend on the processing

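The 6 calls at MC-38 RT 24 h ranged from 4 to 7 over all alternatives. The 3 calls at MC-38 RT 12 h became 5 with a filter of mean TPM of at least 5, and 1 with only the groups compared, with Dunnett comparisons, or with median-ratio scaling without MC-38 control mouse 1 (chosen after seeing the data). The 6 differences between models at 12 h became 0 after median-ratio scaling, with or without that mouse, and with coverage scaled to 25 M reads (also chosen after seeing the data). The 1 difference at 24 h became 0 with only the groups compared. The cause was not tested. With 1 mouse left out, the calls ranged from 0 to 2 at RM-9 RT 12 h (2 without RT 12 h mouse 3), from 1 to 6 at MC-38 RT 12 h, from 6 to 7 at MC-38 RT 24 h and in untreated tumors, and for the difference between models from 6 to 7 at 12 h and from 0 to 2 at 24 h (0 without RM-9 control mouse 4 or RM-9 RT 24 h mouse 1, 2 without MC-38 control mouse 3). RM-9 at 3 h and 24 h, MC-38 at 3 h and the difference at 3 h kept 0 calls in these fits.

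Some small log2 values changed sign. For Mavs in untreated tumors the value was -0.23 after median-ratio scaling, -0.15 without MC-38 control mouse 1 as well, and -0.012 with scaled coverage. Zbp1 at MC-38 RT 12 h had -0.0054 after median-ratio scaling without that mouse. The difference between models at 3 h was for Eif2ak2 -0.076 and -0.17 after median-ratio scaling with and without that mouse, -0.032 without mitochondrial genes and -0.059 with scaled coverage, and for Trim14 it was -0.096, -0.10 and -0.050 in the first 3 of these and -0.0057 with a pseudocount of 0.1. Trim14 had -0.038 and -0.039 at MC-38 RT 3 h and -0.049 and -0.051 at RT 12 h after median-ratio scaling with and without that mouse, and with scaled coverage -0.014 at MC-38 RT 12 h and -0.0054 at RM-9 RT 3 h. With 1 mouse left out, values that changed sign ranged at RM-9 RT 3 h from -0.32 to 0.058 (Ddx58), -0.22 to 0.0025 (Ifih1) and -0.062 to 0.25 (Trim14), at RM-9 RT 12 h from -0.068 to 0.082 (Mavs), at RM-9 RT 24 h from -0.035 to 0.28 (Ddx58), -0.077 to 0.29 (Dhx58), -0.23 to 0.067 (Mavs), -0.0084 to 0.13 (Eif2ak2) and -0.13 to 0.33 (Trim14), and for the difference at 3 h from -0.16 to 0.22 (Eif2ak2) and -0.079 to 0.23 (Trim14).

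With the replicate block (mouse number), 6 sensors were called at MC-38 RT 24 h and 3 at 12 h, as without it, although at 12 h Dhx58 was called in place of Eif2ak2. The numbers mark separate mice, and deviations of same-numbered mice correlated from -0.39 to 0.32 over 21 pairs in RM-9 and from -0.48 to 0.55 over 24 pairs in MC-38. Over all genes, median-ratio scaling turned 4467 higher and 409 lower at MC-38 RT 12 h into 987 and 1577, 2071 and 89 at 24 h into 1231 and 1299, 10 and 1163 at RM-9 RT 12 h into 10 and 6, 9950 and 1644 in untreated tumors into 5235 and 4848, and 6915 and 73 for the difference at 12 h into 235 and 231. With only the groups compared, the counts were 645 and 123 at MC-38 RT 12 h and 292 and 13 at 24 h. With 1 mouse left out, calls ranged from 0 to 1572 at RM-9 RT 12 h and from 1445 to 7288 at MC-38 RT 12 h.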
